A study of Mus musculus with 9 samples.

Results

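The luminal progenitor, defence and surface marker genes Kit, Aldh1a3, Cd14, Cd55, Ltf, Lcn2, Prom1, Epcam, Ly6a and Cd24a were compared over 3 mouse genotypes. They are 10 of the 55450 genes in the count table. They were chosen by name and found by matching Ensembl identifiers to gene symbols. All 10 passed the filter on low counts, which left 19357 genes for testing.

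Bulk RNA-seq counts came from EYFP+ live cells sorted from mammary glands of adult nulliparous mice, in 9 libraries. The 3 control libraries came from mice with lsl-EYFP and K8CreERT2. The 3 LATS1/2-KO-labelled libraries came from mice that had floxed alleles of Lats1 and Lats2 (LATS1/2f/f) with both transgenes, and the 3 labelled LATS1/2-Sox9-KO came from mice that had Sox9f/f in addition. Every mouse, controls included, received 2 mg of tamoxifen on 5 days, and glands were taken 7 days after the last dose. CreERT2 was driven by the Krt8 promoter, so EYFP marks Krt8-expressing luminal cells that recombined the reporter, and their progeny. Singlets were gated by scatter, then live cells by dye and then EYFP+ cells, and no stated surface marker separated luminal progenitors from hormone-sensing cells. Nothing in the labels says that the libraries of a genotype came from separate mice, so p-values measure the spread between these libraries only. Total counts ran from 44167762 to 47003587 in the control libraries, from 50508666 to 61745346 in the LATS1/2-KO-labelled ones and from 55503365 to 61967651 in the LATS1/2-Sox9-KO-labelled ones.

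The luminal layer of the mammary gland holds progenitors of the secretory alveolar lineage and hormone-sensing cells that express oestrogen and progesterone receptors. KIT, CD14 and ALDH1A3 are widely used to recognise the progenitors, whereas PROM1 and SCA1, the product of Ly6a, are used to recognise hormone-sensing cells. EPCAM and CD24 lie on the surface of mammary epithelial cells generally, and lactoferrin (Ltf), lipocalin 2 (Lcn2) and the complement regulator CD55 belong to epithelial defence.

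The targeted genes were read first as a check of the labels. Values are normalized counts, that is, counts scaled to the mean effective library size, and a fold change is on the log2 scale with its standard error (SE). Lats1 lay between 5672 and 5940 normalized counts in the control libraries, between 1923 and 2336 in the LATS1/2-KO-labelled ones and between 1709 and 2058 in the LATS1/2-Sox9-KO-labelled ones. It was lower in both deletion groups, with log2 fold changes of -1.47 ± 0.11 (edgeR adjusted p = 7.07e-06) and -1.64 ± 0.11 (adjusted p = 2.80e-06). Lats2, at 865 to 1220 in control, was 1256 to 1723 and 1240 to 1957 in the deletion groups, and thus was not lower as the labels would have it. Its log2 fold changes were 0.50 ± 0.20 (adjusted p = 0.0571) and 0.61 ± 0.20 (adjusted p = 0.0240). Sox9 was 19948 to 23313 in control, 7205 to 12433 in the LATS1/2-KO-labelled libraries and 6460 to 8812 in the LATS1/2-Sox9-KO-labelled ones, and the latter groups overlapped (log2 fold change -0.40 ± 0.19, adjusted p = 0.250). The study's reporting summary states that RNA-seq quality control of the sorts showed the expected genetic alterations. Counts over a whole gene include exons outside a deleted stretch. The genotype of each library is therefore given below as its label, and every direction rests on those labels.

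The sorted cells carried the keratins of luminal cells at high levels. Krt8 ranged from 168814 to 461281 normalized counts over the 9 libraries and Krt18 from 239706 to 789495, and the sum of 4 luminal keratins was lowest in control (622157 to 731069) and highest in the LATS1/2-Sox9-KO-labelled libraries (1493780 to 1743680). Krt19, another of the 4, was called lower in LATS1/2-KO against control (-1.03, adjusted p = 0.00418), with a mean of 190739 in control and 93446 in the LATS1/2-KO-labelled libraries. The 8 basal markers summed to 4516 to 5617 in control and to 156392 to 386966 in the deletion groups. Krt14, most of that sum in the deletion groups but not in control, was 501 to 909 in control and 117088 to 349679 in the deletion groups, whereas Trp63, which encodes a defining transcription factor of basal cells, was 373 to 2153 in control and 32.5 to 114 in the deletion groups. The part of these keratin and basal marker shifts in the results below was not tested.

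Control replicate 3 stood apart from the other 2 controls in these genes. Among the members it was the lowest control for Lcn2, Cd14, Aldh1a3, Kit, Cd55 and Epcam and the highest for Prom1, Ly6a and Cd24a. Lcn2 in control replicate 3 was 0.414 times the mean of the other 2 controls, and Prom1 was 2.61 times that mean. All 12 other luminal progenitor and alveolar genes of a related list were also lowest in this library, with ratios from 0.152 to 0.886. Over the 13172 tested genes with a mean level of 100 or more normalized counts, 37.9% were lowest and 41.7% highest in control replicate 3, and the ratio had a median of 1.01 (5th percentile 0.551 and 95th percentile 1.59). The hormone-sensing luminal genes went the other way in 8 of 11 cases. In bulk RNA, fewer cells of a type and less RNA per cell cannot be told apart. LATS1/2-KO replicate 1 also stood apart in its group, with the lowest Kit and Lcn2 and the highest Prom1, Ltf and Cd55. Calls of the members that change without either library are given with and without it, and each related list has its counts without these libraries where they differ.

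**Figure D1:**
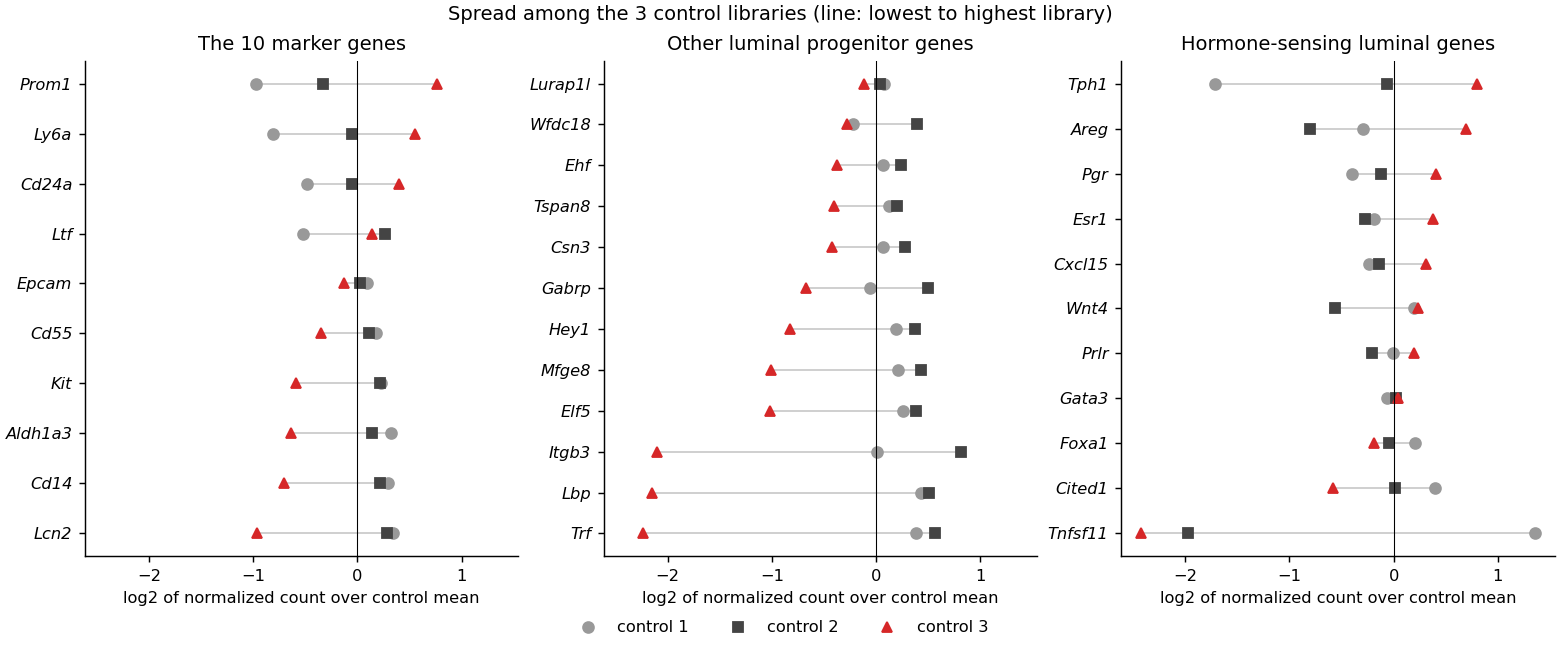
Each row is a gene and each point a control library, placed on the x axis at the log2 of its normalized count over the mean of the 3 controls. The panels show the 10 marker genes, 12 other luminal progenitor genes and 11 hormone-sensing luminal genes. Control replicate 3 is lowest for 6 of the 10 marker genes and for all 12 other progenitor genes, and highest for 3 marker genes and 8 hormone-sensing genes.

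In the LATS1/2-KO-labelled libraries, Ltf, Cd55 and Prom1 fell and Lcn2 rose relative to control, while Kit, Aldh1a3, Cd14 and Ly6a did not pass the test. Adding Sox9f/f went with higher Ly6a and lower Cd14 and Lcn2 than in the LATS1/2-KO-labelled libraries. Against control, the LATS1/2-Sox9-KO-labelled libraries were lower in 6 members and higher in Ly6a only, of the 10. A gene was called where its log2 fold change exceeded 1 in size and its adjusted p, taken over 19357 genes, was 0.05 or less. In LATS1/2-KO against control 1 member was called higher and 3 lower, where 17.1% of all genes tested were called higher and 17.5% lower. In LATS1/2-Sox9-KO against LATS1/2-KO 1 member was called higher and 2 lower, beside 1.55% and 2.16% of all genes. In LATS1/2-Sox9-KO against control 1 was called higher and 6 lower, beside 17.8% and 19.6%. The members' median log2 fold changes were -0.41, -0.44 and -1.20 in that order, against 0.04, -0.02 and 0.01 over all genes tested. In either direction 34.6%, 3.71% and 37.4% of all genes were called. The counts called in the related lists below are to be read beside these shares of all genes. At an adjusted p of at most 0.05 without the size threshold, 1 member was higher and 5 were lower in LATS1/2-KO against control, beside 28.7% and 27.1% of all genes (55.7% in either direction). Between the deletion groups it was 1 and 3, beside 3.13% and 3.33% (6.45%), and in LATS1/2-Sox9-KO against control 1 and 7, beside 29.3% and 28.7% (57.9%). Libraries of the compared groups did not overlap for 1 higher and 5 lower members in LATS1/2-KO against control, beside 31.3% and 30.3% of all genes (61.6%). The same held for 1 and 3 between the deletion groups, beside 14.6% and 13.3% (27.9%), and for 1 and 6 in LATS1/2-Sox9-KO against control, beside 34.9% and 33.8% (68.8%). The comparisons share libraries, so their values stand side by side and are not independent.

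**Figure D2:**
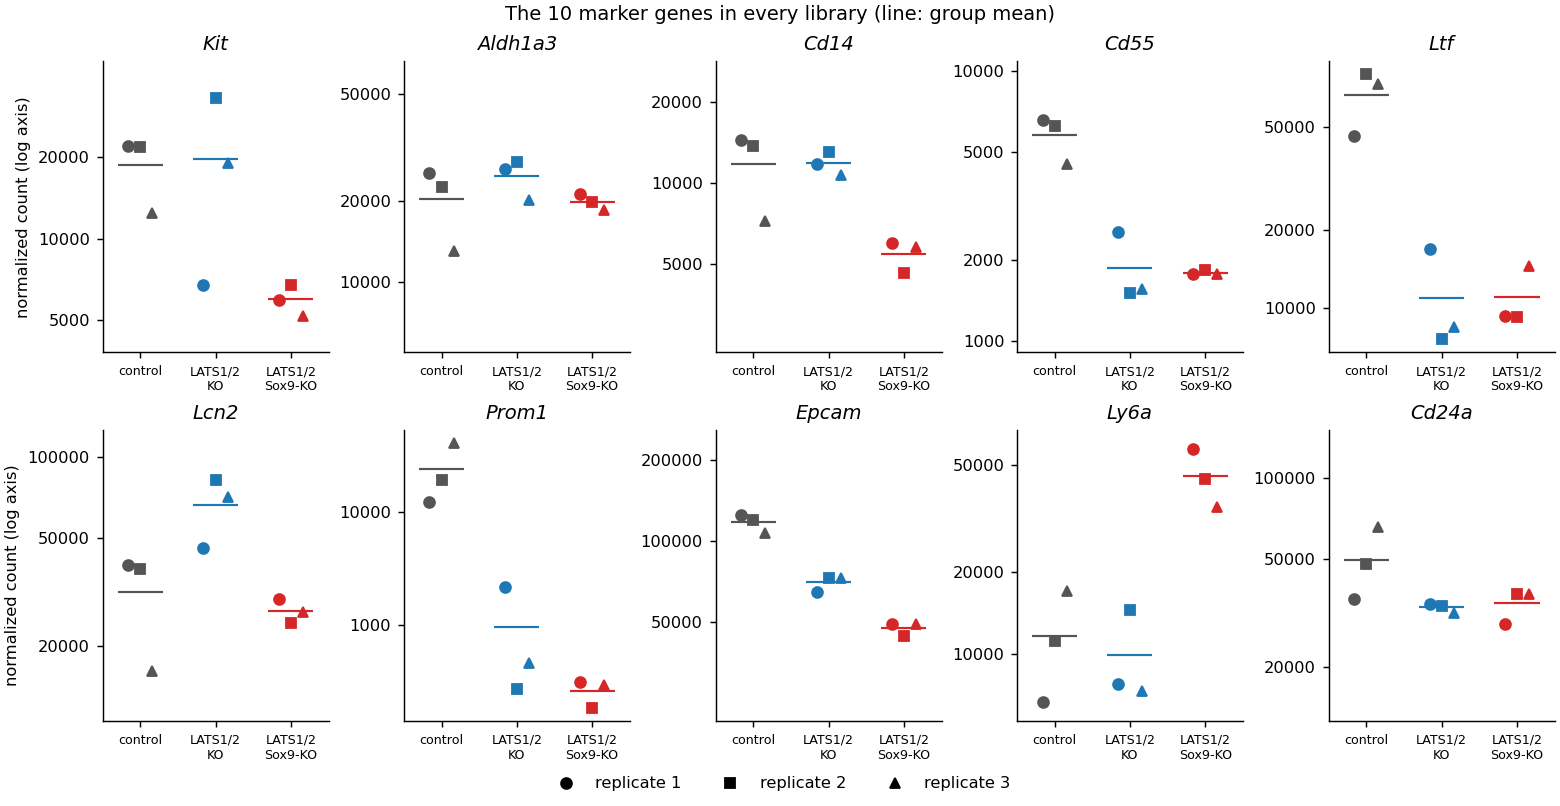
Normalized count on a log y axis for each of the 10 marker genes in the 9 libraries. Points are libraries, symbols give the replicate number, and lines are group means. Epcam steps down from group to group without overlap, Ly6a is high only in the 3 LATS1/2-Sox9-KO-labelled libraries, and Kit spreads from 6728 to 33146 among the LATS1/2-KO-labelled libraries.

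Kit (chr5:75574916-75656722, plus strand, a protein-coding gene on GRCm38 like the other members) encodes the receptor tyrosine kinase for stem cell factor. Its normalized counts were 22019, 21895 and 12446 in control replicates 1, 2 and 3. They were 6728, 33146 and 19067 in the LATS1/2-KO-labelled libraries and 5919, 6742 and 5185 in the LATS1/2-Sox9-KO-labelled ones. The LATS1/2-KO-labelled libraries thus lay on both sides of the controls, whereas the LATS1/2-Sox9-KO-labelled ones lay below every control and overlapped only LATS1/2-KO replicate 1. LATS1/2-KO against control gave a log2 fold change of 0.06 ± 0.45 (95% interval -0.94 to 1.07, adjusted p = 0.915). LATS1/2-Sox9-KO against control gave -1.66 ± 0.46 (adjusted p = 0.0110), a called decrease of 3.16-fold, which did not pass when tested against a fold change of 2 (glmTreat adjusted p = 0.108). LATS1/2-Sox9-KO against LATS1/2-KO gave -1.72 ± 0.46 and did not pass (adjusted p = 0.0562). That difference passed without LATS1/2-KO replicate 1 (-2.13, adjusted p = 0.00540) and in DESeq2 (-1.71, adjusted p = 0.000832). Over 19 alternatives it ran from -2.13 to -1.09 and was called in 5.

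Of 10 genes for its ligand and signalling partners, 4 were called lower and none higher in LATS1/2-KO against control, and 5 lower and none higher in LATS1/2-Sox9-KO against control. Stat5a, the transcription factor of prolactin and cytokine signalling, fell, with a log2 fold change of -3.91 ± 0.34 (adjusted p = 1.29e-05) in the LATS1/2-KO-labelled libraries, and Ptpn6, a phosphatase that dampens receptor kinases, fell as well (-1.87, adjusted p = 6.50e-06). Kitl, the ligand itself, was 5013 to 8715 in control and 3610 to 5409 in the LATS1/2-KO-labelled libraries, a change of -0.57 ± 0.21 (adjusted p = 0.0430) that was too small to be called. No gene of this list was called in LATS1/2-Sox9-KO against LATS1/2-KO. There were 5 lower in LATS1/2-KO against control without control replicate 3, with Pik3r1, a regulatory subunit of PI3 kinase, added (-1.02, adjusted p = 8.21e-05). Mast cells, which also carry KIT, were checked by 7 markers. Of these, 6 had 0 counts in all 9 libraries. A count of 0 still leaves room for a true level of up to 3 counts per library. Ms4a2 was at 0 in all but LATS1/2-KO replicate 3, where it had 2.74 normalized counts.

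Aldh1a3 (chr7:66390890-66427517, minus strand) encodes an aldehyde dehydrogenase that makes retinoic acid. Normalized counts were 25477, 22487 and 13063 in control, 26255, 27850 and 20144 in the LATS1/2-KO-labelled libraries, and 21306, 19899 and 18515 in the LATS1/2-Sox9-KO-labelled ones. The 3 groups overlapped, and the lowest value was control replicate 3. The fold changes were 0.28 ± 0.22 (95% interval -0.21 to 0.78), -0.31 ± 0.22 (-0.81 to 0.18) for LATS1/2-Sox9-KO against LATS1/2-KO, and -0.03 ± 0.22 (-0.53 to 0.46) against control, with adjusted p of 0.306, 0.448 and 0.915. A change of 2-fold lies outside each of these intervals.

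Of 13 other genes of retinoic acid handling, 7 were called higher and 3 lower in LATS1/2-KO against control, 2 and 2 in LATS1/2-Sox9-KO against LATS1/2-KO, and 7 and 2 in LATS1/2-Sox9-KO against control. Rarb, a retinoic acid receptor that is itself a known retinoic acid target, had a mean of 21.6 normalized counts in control and 1502 in the LATS1/2-KO-labelled libraries (log2 fold change 6.10, adjusted p = 2.85e-06). Stra6, a receptor for the retinol carrier, reached no more than 1 count in a control library and averaged 105 normalized counts in the LATS1/2-KO-labelled libraries. Aldh1a7 (-1.98, adjusted p = 0.0198) and Dhrs3, which reduces retinaldehyde (-1.35, adjusted p = 0.00146), fell. The related enzyme gene Aldh1a1 was called higher (1.81 ± 0.57, adjusted p = 0.0217), with 6.96 to 21.5 normalized counts in control and 25.4 to 56.5 in the LATS1/2-KO-labelled libraries, far below Aldh1a3. Neither Aldh1a1 (adjusted p = 0.0701) nor Aldh1a7 (-1.28, adjusted p = 0.0964) passed without control replicate 3, and Aldh1a7 did not pass without LATS1/2-KO replicate 1 (-1.65, adjusted p = 0.0552). The list had 7 higher and 2 lower in LATS1/2-KO against control with either library left out, and 6 and 2 in LATS1/2-Sox9-KO against control without control replicate 3.

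The 12 other luminal progenitor and alveolar genes split. In LATS1/2-KO against control 2 were called higher and 4 lower, in LATS1/2-Sox9-KO against LATS1/2-KO none higher and 3 lower, and in LATS1/2-Sox9-KO against control 2 higher and 6 lower. The list's median log2 fold changes were 0.11, -1.30 and -1.44. Without control replicate 3 the genes called lower were 5, 6 and 7 and the medians -0.14, -1.28 and -1.82, with those called higher as before. Gabrp, a GABA receptor subunit, was 818 to 1839 in control and 19858 to 35022 in the LATS1/2-KO-labelled libraries (4.35 ± 0.38, adjusted p = 1.21e-05), and Lurap1l rose by 2.46 ± 0.12 (adjusted p = 9.10e-07). Transferrin (Trf), at 138006, 156702 and 22402 in control, fell, with a log2 fold change of -2.54 ± 0.59 (adjusted p = 0.00435), and its value in control replicate 3 was close to the highest of the deletion libraries (21936). Without that library Trf gave -3.03 (adjusted p = 4.79e-05). Hey1, a Notch target, fell, with a log2 fold change of -2.45 ± 0.33 (adjusted p = 0.000159). Elf5, a transcription factor of the alveolar lineage, was 5851, 6382 and 2413 in control, 3705, 4590 and 3237 in the LATS1/2-KO-labelled libraries and 1239, 1690 and 2449 in the LATS1/2-Sox9-KO-labelled ones. It passed in LATS1/2-Sox9-KO against control (-1.45 ± 0.35, adjusted p = 0.00558), and against LATS1/2-KO only without control replicate 3 (-1.08, adjusted p = 0.0299). Itgb3, the integrin subunit known as CD61 that marks progenitors in some strains, passed in no comparison, with 572 to 2709 in the LATS1/2-KO-labelled libraries and 153 to 1162 in control.

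Among the defence genes, Cd55 and Ltf were each low in all 6 deletion libraries, with no overlap with control and no difference that passed between the deletion groups. Windows of 250 bases before their RefSeq starts are printed here because both genes fell together, and that of Epcam because it fell at each step. RefSeq promoter records (GRCm38.p6) were found for 6 of the 10 members, in 8 windows. Capitals mark a loose form of the NF-kB motif (3 G, any 5 bases, 2 C) and the letters AGATAA, which GATA factors bind, found on either strand, and overlapping matches run together. The windows are chr1:130462745-130462994 (minus strand) for Cd55, chr9:111019042-111019291 (plus strand) for Ltf and chr17:87635729-87635978 (plus strand) for Epcam, each written 5′ to 3′ on the gene's strand. The Ltf window includes 21 exon bases of the GENCODE gene model, which starts earlier.
Cd55: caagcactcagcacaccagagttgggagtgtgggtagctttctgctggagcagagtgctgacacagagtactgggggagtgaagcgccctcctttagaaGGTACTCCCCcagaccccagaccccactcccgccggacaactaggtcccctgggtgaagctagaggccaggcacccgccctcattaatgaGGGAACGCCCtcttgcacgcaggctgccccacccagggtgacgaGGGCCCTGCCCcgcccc
Ltf: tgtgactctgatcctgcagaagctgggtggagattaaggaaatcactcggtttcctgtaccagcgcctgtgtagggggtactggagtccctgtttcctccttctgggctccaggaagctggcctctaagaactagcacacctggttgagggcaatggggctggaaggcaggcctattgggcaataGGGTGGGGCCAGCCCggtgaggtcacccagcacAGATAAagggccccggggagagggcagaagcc
Epcam: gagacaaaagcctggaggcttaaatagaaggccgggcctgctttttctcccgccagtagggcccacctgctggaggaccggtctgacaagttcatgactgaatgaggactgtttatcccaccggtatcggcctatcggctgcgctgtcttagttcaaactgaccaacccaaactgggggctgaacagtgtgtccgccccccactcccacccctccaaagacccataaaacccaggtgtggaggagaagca
This NF-kB form occurs in 45.8% of 32851 promoter windows of this length, and AGATAA in 9.99%. The Epcam window holds neither. No member window held GGAATG (TEAD, 12.6% of promoters), ACAAAG (16.5%) or ACAATG (10.7%), both SOX-type letters, or TATAAA (12.4%). A match is a description of these letters only.

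Cd55 (chr1:130439027-130462744, minus strand) encodes decay-accelerating factor, which protects cells from complement. Normalized counts were 6565, 6265 and 4536 in control, 2523, 1502 and 1556 in the LATS1/2-KO-labelled libraries, and 1767, 1827 and 1772 in the LATS1/2-Sox9-KO-labelled ones. Every deletion library was below every control, and the LATS1/2-Sox9-KO-labelled libraries differed little among themselves (SD 33.5). The fold changes against control were -1.64 ± 0.21 (3.11-fold lower, adjusted p = 0.000132) and -1.69 ± 0.21 (3.24-fold lower, adjusted p = 9.04e-05). Between the deletion groups it was -0.06 ± 0.21 (95% interval -0.52 to 0.41, adjusted p = 0.909). Cd55 shares 102 exon bases with the antisense gene Gm16083, and reads there could be assigned to either gene if strand was not marked. The study states counting on the same strand, and whether the library kit marked strand is not given in the sources used here. Its paralog Cd55b had at most 16 counts in any library and was not tested. Of 9 tested complement genes, 2 were called higher and 1 lower in LATS1/2-KO against control, none higher and 1 lower in LATS1/2-Sox9-KO against LATS1/2-KO, and 2 and 2 in LATS1/2-Sox9-KO against control. C3, the central complement component, was 22224, 23757 and 2429 in control and fell, with a log2 fold change of -2.30 (adjusted p = 0.0100) in the LATS1/2-KO-labelled libraries, all 3 of which were above control replicate 3. Without that control C3 gave -2.83 (adjusted p = 4.53e-06). The protease gene C1s1 (4.05, adjusted p = 0.00114) rose, by 3.34 (adjusted p = 0.00275) without LATS1/2-KO replicate 1. The lower call between the deletion groups was Cd59a, an inhibitor of the membrane attack complex (adjusted p = 0.0390), and it was lost without LATS1/2-KO replicate 1 (-0.96, adjusted p = 0.0558) or control replicate 3 (-0.98), where C3 was called instead (-1.07, adjusted p = 0.00513). Without LATS1/2-KO replicate 1 the counts were 3 higher and 1 lower in LATS1/2-KO against control, none between the deletion groups, and 2 and 3 in LATS1/2-Sox9-KO against control.

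Ltf (chr9:111019271-111042767, plus strand) encodes lactoferrin, an iron-binding protein of milk and other secretions. It was 45827, 79349 and 72894 in control, 16869, 7619 and 8486 in the LATS1/2-KO-labelled libraries, and 9368, 9260 and 14509 in the LATS1/2-Sox9-KO-labelled ones. The lowest control was above the highest deletion library, which was LATS1/2-KO replicate 1. Ltf fell, with a log2 fold change of -2.59 ± 0.34 (6.01-fold lower, adjusted p = 0.000150) and of -2.58 ± 0.34 (5.98-fold lower, adjusted p = 0.000129) against control. The deletion groups differed by 0.01 ± 0.32 (95% interval -0.71 to 0.73, adjusted p = 0.996).

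Lcn2 (chr2:32384633-32388252, minus strand) encodes lipocalin 2, which binds bacterial iron carriers, and its course was unlike that of Ltf. It was 39850, 38367 and 16177 in control, 45935, 81884 and 71260 in the LATS1/2-KO-labelled libraries, and 29659, 24210 and 26656 in the LATS1/2-Sox9-KO-labelled ones. The LATS1/2-KO-labelled libraries were all above both other groups, and the LATS1/2-Sox9-KO-labelled ones lay inside the range of the controls. The rise in LATS1/2-KO against control was 1.08 ± 0.32 (2.11-fold, adjusted p = 0.0155). Without control replicate 3 it was 0.75 (adjusted p = 0.0186), below the size threshold, and without LATS1/2-KO replicate 2 it was 0.89 (adjusted p = 0.0595). LATS1/2-Sox9-KO against LATS1/2-KO gave -1.31 ± 0.32 (2.47-fold lower, adjusted p = 0.0415). That call was lost without any of control replicate 2, LATS1/2-KO replicate 2 or 3, or LATS1/2-Sox9-KO replicate 1, 2 or 3, where the fold change was -1.10 to -1.36 and the adjusted p 0.0589 to 0.155, and with the replicate number as a block (-1.30, adjusted p = 0.0647). LATS1/2-Sox9-KO against control was -0.23 ± 0.31 (95% interval -0.93 to 0.47, adjusted p = 0.557).

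Of 14 other secreted defence genes, 9 were tested. In LATS1/2-KO against control 3 were called higher and 1 lower, in LATS1/2-Sox9-KO against LATS1/2-KO none and 1, and in LATS1/2-Sox9-KO against control 4 and 2. Spp1, which encodes osteopontin, rose by 4.34 (adjusted p = 0.000606) in the LATS1/2-KO-labelled libraries, and the acute phase gene Saa3 rose from a mean of 1.66, all of it in control replicate 3, to 23.5 normalized counts (adjusted p = 0.0175). Pigr, which carries antibodies across epithelium, fell, with a log2 fold change of -2.56 (adjusted p = 0.000137). With control replicate 3 or LATS1/2-KO replicate 1 left out, when 10 were tested, 4 were called higher and 1 lower in LATS1/2-KO against control, and none and 2 between the deletion groups. Neutrophils also make lactoferrin and lipocalin 2, and 8 neutrophil markers summed to 19.7 to 58.3 normalized counts in each of the 9 libraries, with S100a8 the most abundant in each and Ly6g at no more than 0.912. Their part in the Ltf and Lcn2 results was not tested.

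Cd14 encodes a co-receptor for bacterial lipopolysaccharide. Normalized counts were 14437, 13684 and 7231 in control, 11799, 13078 and 10723 in the LATS1/2-KO-labelled libraries, and 5996, 4631 and 5823 in the LATS1/2-Sox9-KO-labelled ones. All LATS1/2-Sox9-KO-labelled libraries were below the other 6, and control replicate 3 was nearest to them. LATS1/2-KO against control was 0.01 ± 0.23 (95% interval -0.50 to 0.52, adjusted p = 0.975). Cd14 was 2.16-fold lower in LATS1/2-Sox9-KO than in LATS1/2-KO by label (-1.11 ± 0.23, adjusted p = 0.0243) and 2.15-fold lower than in control (-1.10 ± 0.23, adjusted p = 0.00236). The former call was lost without LATS1/2-KO replicate 2 or 3 or LATS1/2-Sox9-KO replicate 1, 2 or 3 (-0.98 to -1.18, adjusted p of 0.0601 or more). The latter fell below the size threshold without control replicate 1 (-0.93), control replicate 2 (-0.98) or LATS1/2-Sox9-KO replicate 2 (-0.98) and with an offset for GC content (-0.91), and did not pass when tested against a fold change of 2 (glmTreat adjusted p = 0.376).

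CD14 hands lipopolysaccharide to a receptor complex. Tlr4, the lipopolysaccharide receptor, was 978 to 1175 in control and 1314 to 1569 in the LATS1/2-KO-labelled libraries (0.44 ± 0.12, adjusted p = 0.0122, below the size threshold), and its partner Ly96 was 143 to 190 and 154 to 183 (0.01 ± 0.21, adjusted p = 0.981). Of 12 tested genes of the Toll-like receptor pathway, 2 were called higher and 3 lower in LATS1/2-KO against control, none in LATS1/2-Sox9-KO against LATS1/2-KO, and 2 and 1 in LATS1/2-Sox9-KO against control. Tlr2 rose by 1.07 (adjusted p = 0.0110), and Tlr6 reached no more than 3 counts in a control library and averaged 78.5 normalized counts in the LATS1/2-KO-labelled libraries. Ticam1, a Toll adaptor (-1.42, adjusted p = 5.10e-05), and Irak3, an inhibitory kinase (-1.04, adjusted p = 0.00537), fell. Without control replicate 3, Tlr2 (0.92) and Irak3 (-0.71) were under the size threshold, as was Irak3 without LATS1/2-KO replicate 1 (-0.99). Without the latter library 2 were called higher and 2 lower in LATS1/2-KO against control, and 1 lower between the deletion groups. The counts without control replicate 3 were as before, with other genes in the place of Tlr2 and Irak3. Macrophages carry CD14 as well. The 9 leukocyte markers summed to 665 to 717 normalized counts in control and to 2014 to 4389 in the deletion groups, most of it Csf1r in the latter. Csf1r was called higher in both deletion groups against control (3.87 and 4.35), and Adgre1 in LATS1/2-Sox9-KO against control (2.69). Cd68, the most abundant of the 9 in control, was 398 to 406 there. It was 229 to 393 and 245 to 358 in the deletion groups, and passed in neither (-0.37, adjusted p = 0.210, and -0.38, adjusted p = 0.193). Ptprc, present on nearly all leukocytes, was 10.9 to 166 in the 9 libraries, and Cd3e and Ms4a1 were at 0 in each. By group the leukocyte sum was 2014 to 3447 in the LATS1/2-KO-labelled libraries and 3315 to 4389 in the LATS1/2-Sox9-KO-labelled ones. In control replicates 1, 2 and 3 it was 717, 685 and 665. The part of leukocytes in the Cd14 result was not tested.

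Prom1 (chr5:43993620-44102032, minus strand) encodes prominin 1, a pentaspan protein of membrane protrusions. It was 12160, 19030 and 40655 in control, 2178, 275 and 461 in the LATS1/2-KO-labelled libraries, and 314, 186 and 295 in the LATS1/2-Sox9-KO-labelled ones. No deletion library came near a control, and LATS1/2-KO replicate 1 was the highest of the 6. Prom1 fell, with a log2 fold change of -4.63 ± 0.79 (24.7-fold lower, adjusted p = 0.000723) and of -6.50 ± 0.87 (90.2-fold lower, adjusted p = 0.000133) against control. The value for LATS1/2-KO was -6.02 without LATS1/2-KO replicate 1 and -4.03 without control replicate 3, and that for LATS1/2-Sox9-KO was -5.87 without control replicate 3. Between the deletion groups it was -1.87 ± 0.72 (95% interval -3.48 to -0.26, adjusted p = 0.158), and -0.47 without LATS1/2-KO replicate 1. Prom1 shares 424 exon bases with the antisense gene Gm16401, with the same limit as for Cd55.

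Prom1 fell beside most hormone-sensing genes. Of 11 such genes, 10 were called lower and none higher in LATS1/2-KO against control, and the same counts held in LATS1/2-Sox9-KO against control. Pgr, the progesterone receptor, was 17143 to 30018 in control, 121 to 658 in the LATS1/2-KO-labelled libraries and 15.9 to 44.6 in the LATS1/2-Sox9-KO-labelled ones. It fell, with a log2 fold change of -5.91 ± 0.60 (adjusted p = 2.99e-05) in LATS1/2-KO against control, and the chemokine gene Cxcl15 fell too (-5.61, adjusted p = 0.000809). Without LATS1/2-KO replicate 1 the values were -6.56 (adjusted p = 3.22e-05) for Pgr and -7.44 (adjusted p = 8.77e-05) for Cxcl15. Tnfsf11 did not pass in any comparison and had a mean of 26.7 normalized counts in control. Between the deletion groups 1 of the 11 was called lower and none higher. Prom2, the paralog of Prom1, went from 35742 to 75989 in control to 294 to 1676 and 359 to 566 in the deletion groups (-5.70 ± 0.64 in LATS1/2-KO against control, adjusted p = 5.45e-05). LATS1/2-KO replicate 1, the deletion library with most Prom1, also had the highest value of its group for 9 of the 11 hormone-sensing genes.

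Epcam (chr17:87635979-87651129, plus strand) encodes the epithelial cell adhesion molecule by which mammary epithelium is often sorted. It was 125312, 119833 and 107647 in control, 64969, 73109 and 72846 in the LATS1/2-KO-labelled libraries, and 49445, 44462 and 49508 in the LATS1/2-Sox9-KO-labelled ones. The 3 groups formed 3 steps without overlap. Both steps passed the test but stayed under the size threshold: -0.74 ± 0.10 (1.67-fold lower, adjusted p = 0.000215) and -0.56 ± 0.10 (1.47-fold lower, adjusted p = 0.0164). The latter missed 0.05 without LATS1/2-KO replicate 2 or 3 or LATS1/2-Sox9-KO replicate 2 or 3 (adjusted p from 0.0518 to 0.103). Against control, the LATS1/2-Sox9-KO-labelled libraries were called lower, with -1.30 ± 0.11 (2.46-fold, adjusted p = 6.18e-06).

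Cd24a (chr10:43578284-43584265, plus strand) encodes heat stable antigen, a small lipid-anchored glycoprotein. It was 35718, 48155 and 65803 in control, 34284, 33671 and 31547 in the LATS1/2-KO-labelled libraries, and 28862, 37200 and 37207 in the LATS1/2-Sox9-KO-labelled ones. The controls were widely spread, and control replicate 1 lay just above the LATS1/2-KO-labelled libraries. The fold changes against control were -0.59 ± 0.20 (adjusted p = 0.0283) and -0.54 ± 0.20 (adjusted p = 0.0403), both under the size threshold. Without control replicate 3 they were -0.35 (adjusted p = 0.0921) and -0.28 (adjusted p = 0.172), and the former also missed 0.05 without control replicate 2 or any LATS1/2-KO library. Of the 9 libraries, leaving out any but control replicate 1 raised the latter above 0.05. Of the 18 alternatives other than glmTreat, 9 kept it at 0.05 or less. An alternative other than those that left out a single library therefore missed 0.05 as well. Between the deletion groups the change was 0.05 ± 0.20 (95% interval -0.39 to 0.50, adjusted p = 0.909).

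Of 14 other epithelial surface and adhesion genes, 3 were called higher and 2 lower in LATS1/2-KO against control, with the same counts in LATS1/2-Sox9-KO against control and none called between the deletion groups. Cd44, the hyaluronan receptor, was 3734 to 9147 in control, 32844 to 60192 in the LATS1/2-KO-labelled libraries and 81915 to 97200 in the LATS1/2-Sox9-KO-labelled ones (2.68 ± 0.33 in LATS1/2-KO against control, adjusted p = 9.54e-05). Itgb1, the integrin beta 1 chain, rose by 2.00 ± 0.13 (adjusted p = 3.11e-06). Prom2, described above, and Itga6, the alpha 6 integrin chain (-1.04 ± 0.13, adjusted p = 8.74e-05), fell. Without LATS1/2-KO replicate 1, Itga6 was under the size threshold (-0.93). Cd44 was called higher between the deletion groups without that library (1.38, adjusted p = 0.0293) or without control replicate 3 (1.09, adjusted p = 0.0196). Muc1, a mucin of the apical surface, was called lower in LATS1/2-KO against control without control replicate 3 (-1.32, adjusted p = 0.0133), and in LATS1/2-Sox9-KO against control without that library (-1.44, adjusted p = 0.00815) or LATS1/2-KO replicate 1 (-1.08, adjusted p = 0.0372). Cldn7, a claudin that binds EPCAM, did not pass (-0.32 ± 0.18, adjusted p = 0.174).

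Ly6a (chr15:74994877-74998031, minus strand) encodes SCA1, a lipid-anchored surface protein. It was 6611, 11177 and 17081 in control and 7714, 14545 and 7287 in the LATS1/2-KO-labelled libraries, which overlapped. In the LATS1/2-Sox9-KO-labelled libraries it was 57356, 44239 and 34801, and the lowest of these was above the highest of the other 6. LATS1/2-KO against control was -0.24 ± 0.36 (95% interval -1.04 to 0.56, adjusted p = 0.600), and 0.13 without control replicate 3. Ly6a rose by 2.21 ± 0.38 (4.62-fold, adjusted p = 0.0129) in LATS1/2-Sox9-KO against LATS1/2-KO. It rose by 1.97 ± 0.37 (3.91-fold, adjusted p = 0.00123) against control. Without LATS1/2-KO replicate 3 the former was 2.03 with an adjusted p of 0.0527, and it passed with each of the other 8 libraries left out.

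SCA1 is also found on fibroblasts and endothelial cells. The 6 fibroblast markers summed to 2336, 4173 and 9312 in control, most of it Dcn, to 8402, 2254 and 2742 in the LATS1/2-KO-labelled libraries and to 2337, 3077 and 6012 in the LATS1/2-Sox9-KO-labelled ones. By library, Dcn was 1626, 3291 and 8162 in control and 1320, 289 and 1161 in the LATS1/2-KO-labelled libraries. In the LATS1/2-Sox9-KO-labelled libraries it was 27.8, 120 and 325. Dcn was called lower in LATS1/2-Sox9-KO against control (-4.79, adjusted p = 0.00160), whereas the collagen genes Col1a1 (2.37, adjusted p = 0.00487) and Col3a1 (3.04, adjusted p = 0.00702) were called higher. These collagen genes made up most of the sum in the LATS1/2-Sox9-KO-labelled libraries, at 1236, 1354 and 2253 for Col1a1 and 1018, 1490 and 3131 for Col3a1. The 6 endothelial markers summed to 4969 to 5996 in control, nearly all Vwf, and to 321 to 954 in the 6 deletion libraries. Vwf was called lower in both deletion groups against control (-4.99, adjusted p = 2.67e-05, and -5.42, adjusted p = 1.42e-05), and Kdr, a receptor for vascular endothelial growth factor, was called higher in both (2.43, adjusted p = 0.0179, and 3.37, adjusted p = 0.00343). The 5 adipocyte markers were at most 34.3 in sum in the controls and replicate 1 of each deletion group and 260 to 1360 in replicates 2 and 3 of those groups. The 5 red cell markers reached 145 in control, mostly Alas2. The part of other cells in the Ly6a result was not tested.

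Of 9 tested genes of the Ly6 family, 3 were called higher and 5 lower in LATS1/2-KO against control, 1 and 1 in LATS1/2-Sox9-KO against LATS1/2-KO, and 3 and 3 in LATS1/2-Sox9-KO against control. In LATS1/2-KO against control, Ly6h (4.17, adjusted p = 0.00360) and Lynx1 (1.19, adjusted p = 0.0258) rose, and Ly6k (-4.03, adjusted p = 0.000207) and Ly6d (-3.75 ± 0.40, adjusted p = 4.02e-05) fell. Ly6e, the most abundant of the family, was 151892 to 210742 in control and 76847 to 95834 in the LATS1/2-KO-labelled libraries (-1.06 ± 0.15, adjusted p = 0.000217), and was under the size threshold without control replicate 3 (-0.94) or LATS1/2-KO replicate 1 (-0.98). Without control replicate 3, 3 of the family were called higher and 3 lower in LATS1/2-KO against control, and 2 and none between the deletion groups. Without LATS1/2-KO replicate 1, 2 were called higher and 4 lower in LATS1/2-KO against control. Ly6c1, a near neighbour of Ly6a in sequence, was 654 to 1809 in the LATS1/2-Sox9-KO-labelled libraries and 395 to 557 in the LATS1/2-KO-labelled ones, and did not pass (1.27 ± 0.48, adjusted p = 0.149). In LATS1/2-Sox9-KO against control it did not pass either (1.04, adjusted p = 0.0872), but it was called higher without control replicate 3 (1.77, adjusted p = 0.00547), where the call of Ly6h was lost (2.73, adjusted p = 0.0584) and the family again had 3 higher and 3 lower. Reads that align equally well to near-identical family members were not counted.

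**Figure D3:**
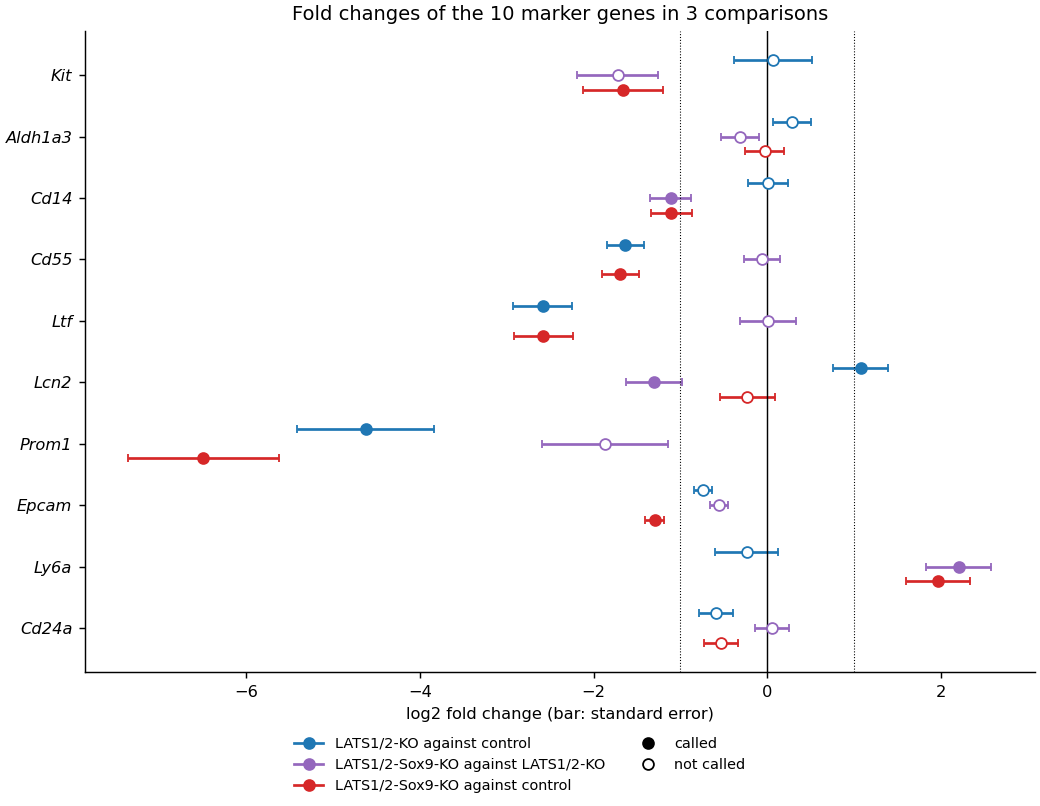
Log2 fold change on the x axis with its standard error for each of the 10 marker genes in 3 comparisons. Filled points were called, and dotted lines mark a log2 fold change of 1 in either direction. Prom1 reaches -6.50 in LATS1/2-Sox9-KO against control, and Ly6a (2.21) is the only filled point on the right in LATS1/2-Sox9-KO against LATS1/2-KO.

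Levels were compared between genes per kilobase of exon. In control, Epcam led with 53575 ± 4119 normalized counts per kilobase (SD, n = 3), apart from Cd24a (19338 ± 5860) and Ltf (19137 ± 5155), which overlapped. From Ltf down to Kit, each gene overlapped its neighbour, and Cd55 was lowest at 1193 ± 226. In the LATS1/2-KO-labelled libraries, Epcam (32031 ± 2108) and Lcn2 (25299 ± 7041) led and overlapped, and Prom1 came last at 135 ± 146. In the LATS1/2-Sox9-KO-labelled libraries, Ly6a stood first at 37730 ± 9400, apart from Epcam at 21779 ± 1319, and Prom1 was again last, at 36.9 ± 9.59.

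**Figure D4:**
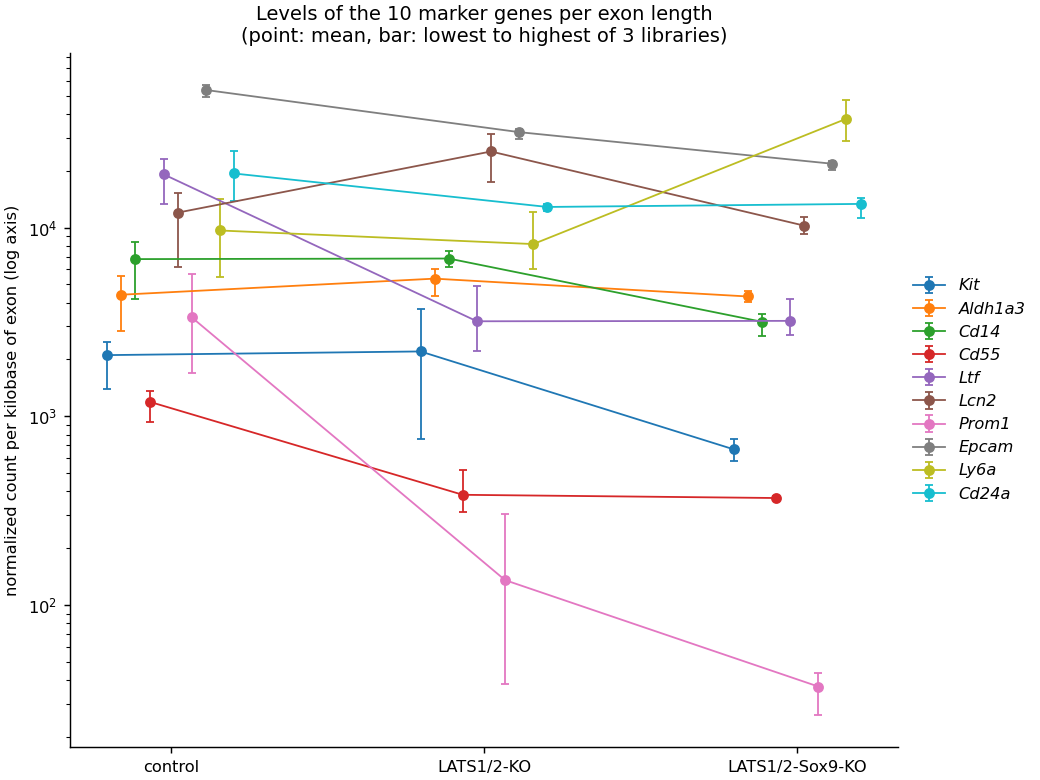
Normalized count per kilobase of exon on a log y axis for the 10 marker genes in each group. Points are means of 3 libraries and bars run from the lowest to the highest library. Epcam is first in the groups labelled control and LATS1/2-KO and Ly6a in the group labelled LATS1/2-Sox9-KO, and Prom1 drops from eighth to last place.

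For each member, the 2 genes with the closest course over the 9 libraries were found among 11816 genes, by the root mean square difference of log2 values after centring. Epcam had the closest neighbours, Lrp6 (0.0925) and Glt28d2 (0.0961), and Prom1 the most distant, Tmem56 (0.451) and Capn8 (0.461). The neighbours of Ly6a were Hopx (0.371) and Sp110 (0.378), those of Kit were Acsl1 (0.336) and Oxtr (0.345), and those of Cd14 were Pde4d (0.193) and Dennd4a (0.248). Cd55 was closest to Gfpt1 (0.132), Ltf to Aox1 (0.241), Lcn2 to Notch4 (0.235), Aldh1a3 to Uap1 (0.133) and Cd24a to Abhd4 (0.113). These are descriptions of likeness without a test.

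**Figure D5:**
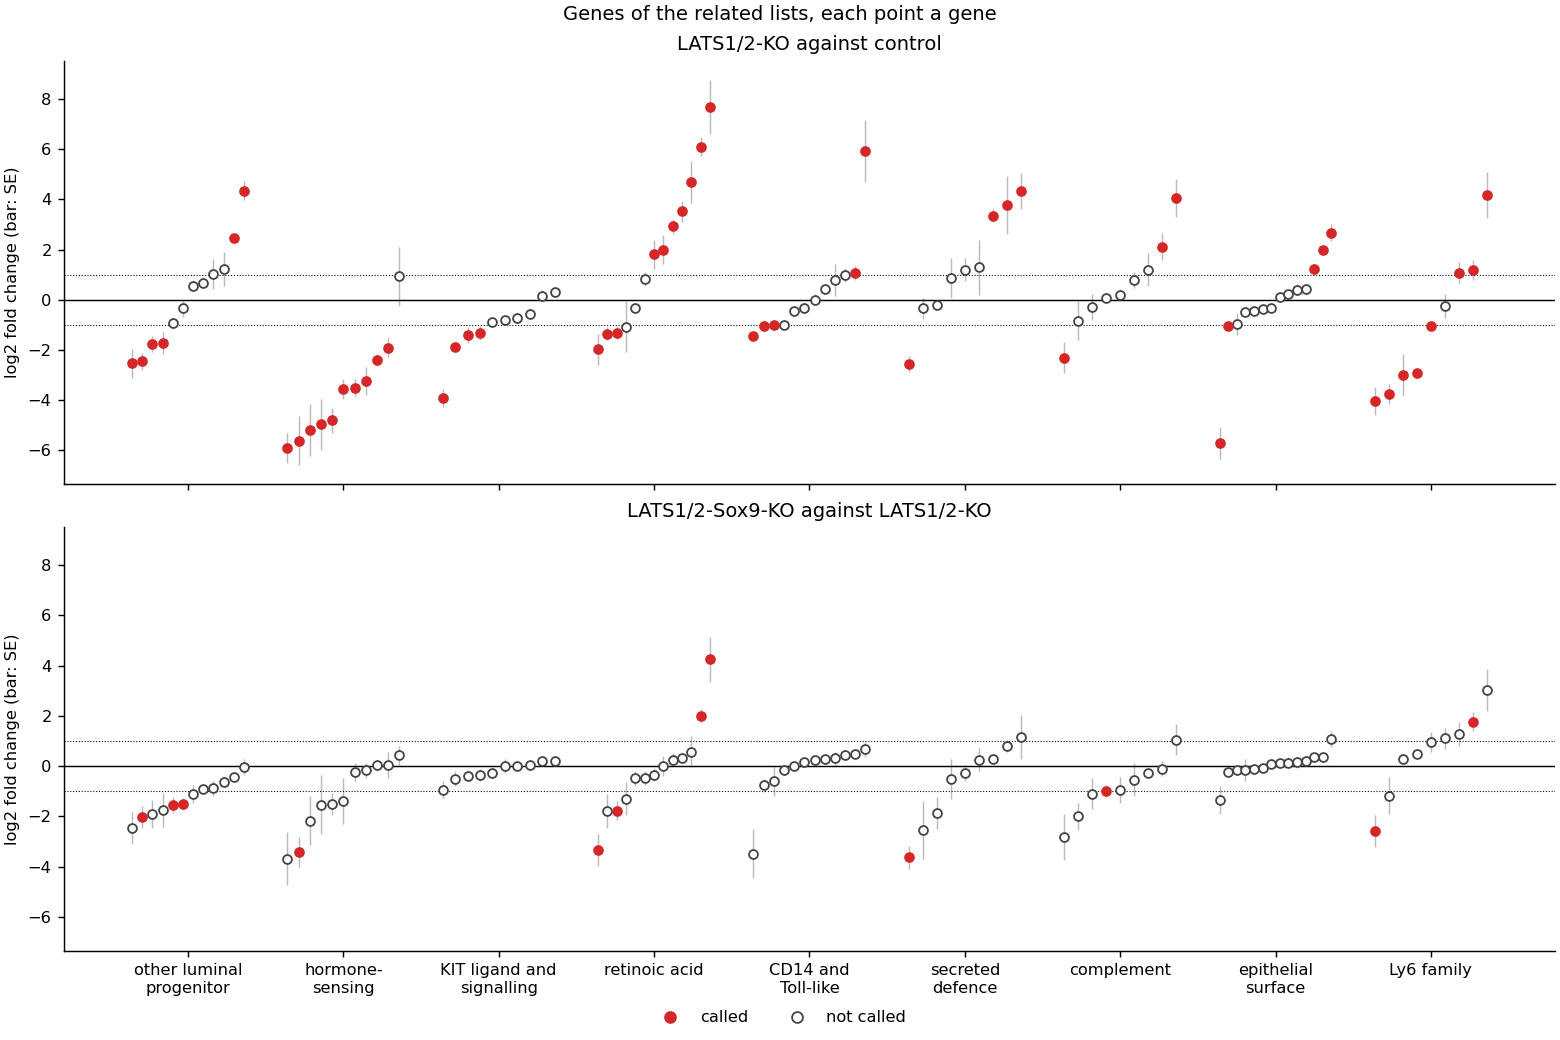
Each point is a gene of a related list, with its log2 fold change and standard error on the y axis, for LATS1/2-KO against control above and LATS1/2-Sox9-KO against LATS1/2-KO below. Red points were called. In the upper panel 10 of 11 hormone-sensing genes are called lower and 7 of 13 retinoic acid genes higher, and in the lower panel 3 of 12 other luminal progenitor genes are called lower and none higher.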

How the data were processed

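RNA-seq counts of EYFP+ mouse mammary cells were used from 9 libraries. Per the labels and the study's methods, the authors aligned reads to mm10 with STAR 2.6.0c, counted properly paired, uniquely aligned reads of the same strand on Ensembl genes with featureCounts (Subread 1.6.2) and deposited whole-number counts without normalization or pooling. Whether the TruSeq kit marked strand is not given in the sources used here. Groups and replicate numbers came from the sample titles. Same-numbered libraries of different groups had correlations of -0.054 to 0.133 between their deviations from the group means, and 1 of 9 pairs exceeded 0.1, so the numbers were not taken to pair mice.

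Fold changes came from edgeR 4.0.16 in R 4.3.3: filterByExpr, TMM factors, and a quasi-likelihood fit of 3 group means to all 9 libraries, with Benjamini-Hochberg adjustment over 19357 genes. Intervals of 95% are 2.23 standard errors wide on each side, for 9.85 degrees of freedom. No 2 libraries of a group agreed within sampling noise (chi-square per gene from 17.9 to 142). Normalized counts use the mean effective library size, and lengths are union exon lengths of GENCODE M21 (GRCm38), which held 55190 of the 55450 identifiers. Promoters came from RefSeq. The named genes are the 10 members, the targeted genes, and from each related list the 2 largest called increases and decreases in LATS1/2-KO against control and genes of a member's family or complex. The 10 members, the lists and the tests were chosen with earlier results of these data known, and beyond that rule Krt8, Krt18, marker genes, Tnfsf11, Pik3r1, Muc1 and Cd59a were named after their values were seen. Elf5 and Itgb3 were listed by name with that rule, though neither was called in LATS1/2-KO against control. Alternatives were RLE and upper-quartile factors, TMM without the 100 most counted genes, DESeq2 1.42.0, no filter, at least 10 counts in every library, the 2 compared groups alone, a replicate block, glmTreat, a GC content offset, and each library left out. For the related lists only control replicate 3 and LATS1/2-KO replicate 1 were left out, chosen after seeing the data. The code was run on simulated counts with planted changes larger than the size threshold, which does not bear on calls near that threshold. Depth makes counting error small for the members, and n = 3 sets the precision. The reads and deleted exons were not analysed here. Some genes that the rule names are not reported here.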

Additional observations from a re-analysis of the deposited data

How the results depend on the processing

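Over the alternatives, 570 values of single genes were recomputed: 517 kept their direction and whether they were called (both thresholds together), 25 lost a call, 5 gained one and 23 changed sign. A value that crossed only the adjusted p threshold, as for Cd24a and Epcam, is among the 517. The sign changes were all in genes that did not pass the test. Cd14 in LATS1/2-KO against control was -0.0229 with RLE factors, -0.0231 in DESeq2, -0.0046 with at least 10 counts in every library and -0.26 to 0.18 with a library left out. Kit there was -0.0585 with the replicate block, -0.0417 with the GC offset and -0.55 to 0.48 with a library left out, and Ly6a -0.64 to 0.13. In LATS1/2-Sox9-KO against LATS1/2-KO, Ltf was -0.047 with upper-quartile factors, -0.0041 with at least 10 counts, -0.0007 with the GC offset and -0.22 to 0.46 with a library left out, and Cd55 -0.17 to 0.23. In LATS1/2-Sox9-KO against control, Aldh1a3 was 0.011 without the filter, 0.0183 with the replicate block and -0.26 to 0.17 with a library left out, and Lcn2 was 0.0894 with the GC offset. With glmTreat, which tests against a fold change of 2, members called higher went from 1 to 0 in LATS1/2-KO against control and between the deletion groups, where members called lower also went from 2 to 0, and members called lower in LATS1/2-Sox9-KO against control went from 6 to 4, without Kit and Cd14. All genes called higher and lower with glmTreat were 1962 and 2043, 18 and 14 between the deletion groups, and 2240 and 2468. Between the deletion groups DESeq2 called 489 higher and 744 lower, where edgeR called 301 and 418. The replicate block left 1 member called lower there, since Lcn2 lost its call, and it changed no other member's call. With a library left out, members called higher were 0 to 1 in LATS1/2-KO against control, and between the deletion groups 0 to 1 higher and 0 to 3 lower, with 121 to 497 and 78 to 582 of all genes. The fewest higher were without LATS1/2-KO replicate 3, the fewest lower without LATS1/2-Sox9-KO replicate 2, and the most of both without LATS1/2-KO replicate 1. The cause of these shifts was not tested. Counts of members and of the 2 other whole-table comparisons stayed within 1.5 times otherwise. With 3 libraries a group, differences between the deletion groups are the least certain.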
